A study of Homo sapiens with 12 samples.

Results

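The comparison described here asked whether the response of BCPAP cells to low oxygen changed when NOX4 was silenced. It is the difference between 2 responses, hypoxia against normoxia after siRNA against NOX4 (siNOX4) minus hypoxia against normoxia after scrambled siRNA (siControl), which equals the siNOX4 effect at 1% oxygen minus that at 20% oxygen. All 12 samples of the series entered it: 3 libraries each of siControl at 20% oxygen (siControl normoxia), siNOX4 at 20% oxygen (siNOX4 normoxia), siControl at 1% oxygen (siControl hypoxia) and siNOX4 at 1% oxygen (siNOX4 hypoxia). It was fitted with all 12 samples, and with 10 samples in which siControl normoxia replicate 2 was the only normoxia control. BCPAP is an established cell line from a human papillary thyroid carcinoma, and every group, controls included, went through siRNA transfection. Per the series' design, replicates came from independent transfections. The labels do not give the time spent at low oxygen. A positive difference means a more positive hypoxia response with siNOX4 than with siControl, in log2 units throughout.

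Cells sense oxygen through prolyl hydroxylases that mark the HIF alpha subunits for destruction. When oxygen falls, HIF binds DNA at short sites and raises genes of glycolysis, glucose uptake and blood vessel growth, while mitochondrial respiration is turned down. NOX4 is an NADPH oxidase that produces hydrogen peroxide and needs the partner subunit CYBA, and thyroid cells also use the related oxidases DUOX1 and DUOX2 to make hydrogen peroxide for hormone synthesis.

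The siControl normoxia libraries were not alike. The chi-square statistic per gene between 2 libraries of a group was 104.1 for siControl normoxia replicates 1 and 2 and 111.7 for replicates 2 and 3, but 8.158 for replicates 1 and 3 and 2.183 to 12.8 within the other groups. Which of these libraries represents the group cannot be told from the labels, so the difference is also given with replicate 1 and with replicate 3 as the only normoxia control. A fit with 1 such library compares that library with the other groups and assumes that it varies like them, and the fits share the 9 other libraries. Summed counts per library were 16559386 to 21282835. The thyroid transcription factors PAX8, NKX2-1 and FOXE1 were present in every library, with lowest levels of 382, 43.3 and 20.2 CPM (counts scaled to library size), whereas the thyroid hormone precursor TG, the TSH receptor TSHR and the iodide importer SLC5A5 were at most at 0.318 CPM.

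NOX4 was counted 8, 13 and 6 times in siControl normoxia and 1, 5 and 3 times in siNOX4 normoxia. It was counted 17, 8 and 13 times in siControl hypoxia and 4, 3 and 4 times in siNOX4 hypoxia. At each oxygen level the siNOX4 counts lay below all siControl counts, including that of siControl normoxia replicate 2, which was the highest of its group. The fitted siNOX4 effect on NOX4 was −1.48 in normoxia and −1.70 in hypoxia with all libraries. The difference of the responses was −0.21 (SE 0.81, 95% interval −1.98 to 1.55, edgeR adjusted p = 0.887), and 0.34 (SE 1.01, −1.76 to 2.44, adjusted p = 0.974) with siControl normoxia replicate 2 alone. An unequal silencing at the 2 oxygen levels was not detectable at these counts.

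With all 12 libraries no gene passed the test. Of 17277 genes tested, 0 (0%) had an adjusted p under 0.05 by edgeR's quasi-likelihood test, the smallest being 0.159, while 3609 (20.9%) had an unadjusted p under 0.05 and DESeq2 called 75. With siControl normoxia replicate 2 as the only normoxia control, 2 of 18624 genes (0.0107%) were called, both higher with siNOX4, AKAP1 and GOLGA2P7, and 1042 (5.59%) had an unadjusted p under 0.05. With replicate 1 instead, 6842 of 18918 genes (36.2%) were called, 3501 higher (18.5%) and 3341 lower (17.7%). With replicate 3, 6951 of 18875 genes (36.8%) were called, 3613 higher (19.1%) and 3338 lower (17.7%). The number of genes said to respond differently to hypoxia after NOX4 silencing therefore ran from 0 to 6951 over these 4 fits, and was 7696 of 17960 with replicates 1 and 3 together.

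**Figure D1:**
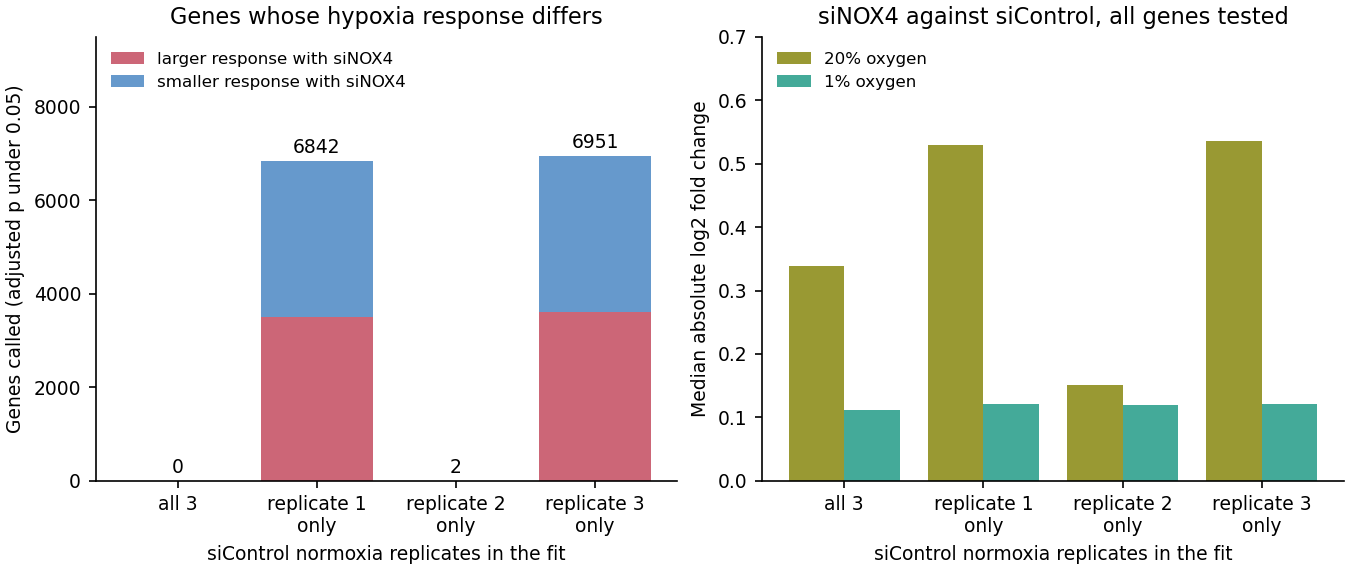
Left, number of genes called for a difference of hypoxia responses (adjusted p under 0.05, stacked by direction) against the siControl normoxia replicates in the fit. Larger and smaller in the key mean more and less positive. Right, median absolute log2 fold change of siNOX4 against siControl at 20% and at 1% oxygen over all genes tested in the same fits. The hypoxia libraries are the same in every fit. Calls were 0, 6842, 2 and 6951, and the 20% oxygen bars move with the library used, from 0.151 to 0.535, while the 1% oxygen bars stay between 0.111 and 0.121.

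The size of the differences followed the normoxia arm, which the make-up of the fits largely sets. They differ only in their siControl normoxia libraries, so the siNOX4 effect in hypoxia could hardly move between them. The median absolute siNOX4 effect in hypoxia was 0.111 with all libraries and 0.12 to 0.121 in the fits with a single normoxia control. In normoxia it was 0.338 with all libraries, 0.529 with replicate 1, 0.535 with replicate 3 and 0.151 with replicate 2. Among genes with at least 5 CPM in the highest group, the normoxia effect was the larger in 81.3% with all libraries and in 54.9% with replicate 2. A difference of at least 1 (2-fold) was estimated for 719 such genes (6.07%) with all libraries, 1747 (14.7%) with replicate 1, 1813 (15.3%) with replicate 3 and 52 (0.439%) with replicate 2. The median difference over all genes stayed near 0 in every fit (0.0194, −0.000862, −0.00603 and −0.00201 with all libraries and replicates 1, 2 and 3).

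The responses of both cell populations can also be set side by side, since they share no library. Across genes, Pearson's r between the siControl and the siNOX4 response was 0.782 with all libraries, 0.542 with replicate 1, 0.576 with replicate 3 and 0.818 with replicate 2. The Spearman coefficient was 0.786, 0.578, 0.616 and 0.875 in that order. These are descriptions across genes, which are not independent replicates. With replicate 2, 9154 genes were called for hypoxia in both populations, 9151 of them in the same direction and 3 in opposite directions. With replicate 1, 7437 were called in both and 880 of them in opposite directions.

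**Figure D2:**
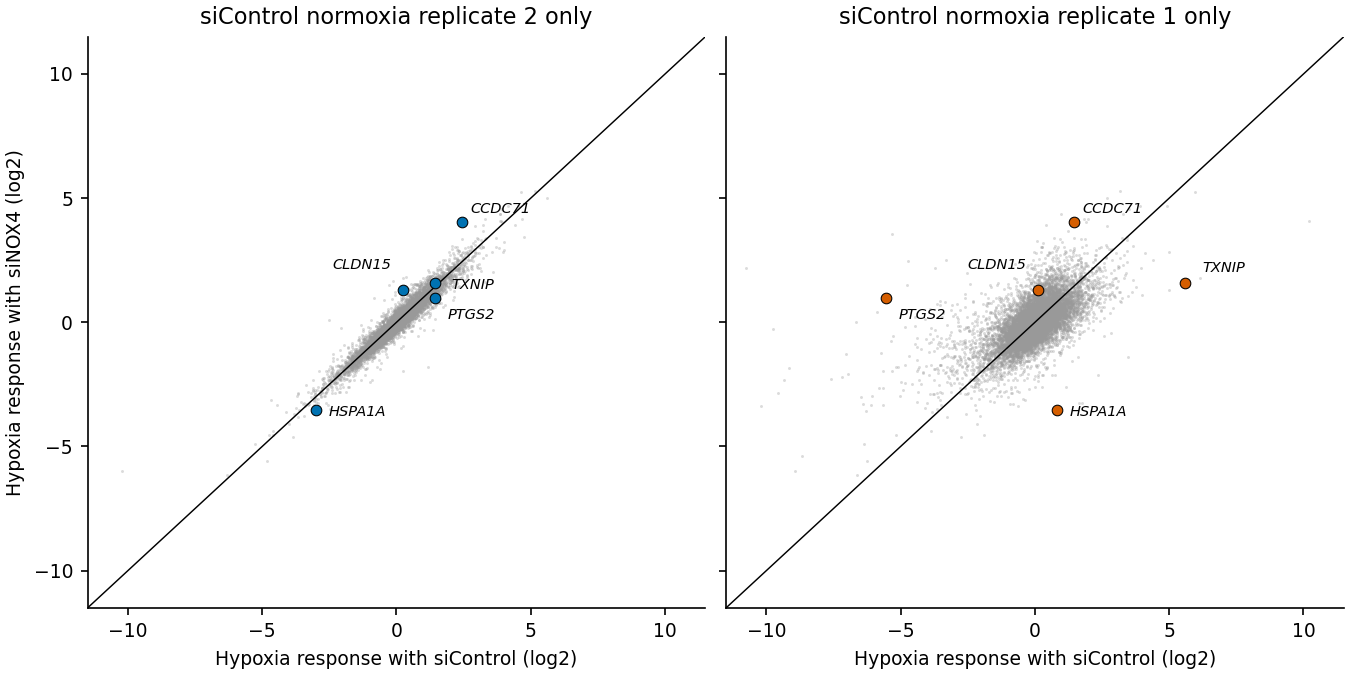
Log2 hypoxia response with siNOX4 (vertical) against that with siControl (horizontal) for genes with at least 5 CPM in the highest group (grey points), with siControl normoxia replicate 2 (left) or replicate 1 (right) as the only normoxia control; 5 genes are marked and the line is equality. The points lie close to the line on the left and spread on the right, where PTGS2 and HSPA1A stand far from it.

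AKAP1, an anchor that holds protein kinase A and RNA at the outer mitochondrial membrane, was the protein-coding gene with a call in each fit that used 1 normoxia control. Its levels were 103, 109 and 106 CPM in siControl normoxia and 50.5, 50.5 and 54.9 CPM in siNOX4 normoxia. In hypoxia they were 128, 121 and 125 CPM with siControl and 101, 92.7 and 94.1 CPM with siNOX4. The siControl normoxia libraries lay close together for this gene, and siNOX4 lay below siControl without overlap at both oxygen levels, by more in normoxia. Hypoxia raised AKAP1 by 0.88 in siNOX4 cells (adjusted p = 1.8e-06) and by 0.24 in siControl cells (adjusted p = 0.0158) with all libraries. The difference was 0.65 with all libraries (SE 0.10, adjusted p = 0.159), 0.59 with replicate 1 (SE 0.11, adjusted p = 0.000197), 0.69 with replicate 2 (SE 0.11, adjusted p = 0.0267) and 0.63 with replicate 3 (SE 0.11, adjusted p = 8.62e-05). It ranged from 0.44 to 0.84 over the 81 choices of 1 library per group. DESeq2 called it with all libraries. In the fit with replicate 2 the call was lost in 6 of the 9 fits that left out 1 further library, under limma-voom and under a replicate block, with adjusted p between 0.000107 and 0.156 over the alternatives and a difference between 0.65 and 0.73.

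AKAP1 lies on chromosome 17 of GRCh38. Promoters are shown for 3 genes because HIF binds a short core, ACGTG or GCGTG, which was searched on both strands in the 250 bases before the most upstream RefSeq start (GRCh38.p14). AKAP1 is the gene called with every single control, CLDN15 a gene with a difference of the same direction, and PPFIA4 one whose difference changed direction with the control. Matches are in capitals, and overlapping matches run together.
AKAP1: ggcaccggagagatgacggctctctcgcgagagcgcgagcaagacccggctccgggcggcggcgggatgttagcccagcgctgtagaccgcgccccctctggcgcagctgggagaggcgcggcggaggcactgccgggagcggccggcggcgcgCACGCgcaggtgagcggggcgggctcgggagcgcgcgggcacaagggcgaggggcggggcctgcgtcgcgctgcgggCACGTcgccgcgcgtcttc
CLDN15: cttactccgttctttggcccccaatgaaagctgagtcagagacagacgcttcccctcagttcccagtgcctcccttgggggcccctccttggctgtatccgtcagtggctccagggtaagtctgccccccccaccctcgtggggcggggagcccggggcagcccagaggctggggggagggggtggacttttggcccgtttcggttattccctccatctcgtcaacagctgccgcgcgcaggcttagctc
PPFIA4: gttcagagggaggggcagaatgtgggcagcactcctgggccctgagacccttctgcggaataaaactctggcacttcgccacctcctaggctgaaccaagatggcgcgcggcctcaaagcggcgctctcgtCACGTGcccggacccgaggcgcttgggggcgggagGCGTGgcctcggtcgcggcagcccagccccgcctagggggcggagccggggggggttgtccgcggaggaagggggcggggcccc
The windows are chr17:57084996-57085245 (plus strand), chr7:101237803-101238052 (minus strand) and chr1:203026241-203026490 (plus strand), written 5′ to 3′ along the gene. AKAP1 held 2 matches, PPFIA4 held 3 and CLDN15 held 0. A match was present in 15172 of 35116 RefSeq promoters of the same length (43.2%), and at the most upstream start in 5 of the 11 genes with the smallest p that could be matched by symbol to the table, of 19 such genes. A match is a run of letters and does not show that a factor binds there.

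The other genes with a more positive response after siNOX4 were led by CLDN15, a claudin of tight junctions. They and the genes of the next paragraph had the smallest p in 1 of the fits among protein-coding genes of at least 5 CPM whose difference kept its sign over every choice of libraries, which held for 984 of the genes tested (5.7%) with all libraries and 2716 (14.6%) with replicate 2. CLDN15 was at 12.9, 11.6 and 14.4 CPM in siControl normoxia and 6.74, 7.12 and 6.29 CPM in siNOX4 normoxia. At 1% oxygen its levels were 13.5, 14.2 and 13.5 CPM with siControl and at 17.6, 17.3 and 15 CPM with siNOX4. The siNOX4 libraries were thus lowest of all in normoxia and highest of all in hypoxia, with no overlap at either level. Its difference was 1.22 with all libraries (SE 0.17, adjusted p = 0.159) and 1.06 with replicate 2 (SE 0.19, adjusted p = 0.115), so edgeR called it in neither, while DESeq2 called it with all libraries (adjusted p = 2.02e-05). With replicate 1 or 3 it was called (1.20 and 1.37, adjusted p = 3.67e-05 and 6.7e-06).

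CCDC71 had the largest difference among these genes. It was at 3.37, 1.67 and 2.80 CPM in siControl normoxia and 0.508, 0.533 and 0.725 CPM in siNOX4 normoxia, from 57, 27 and 46 counts and 8, 8 and 12 counts. Its hypoxia levels were 8.54, 9.07 and 9.57 CPM with siControl and 9.75, 10.0 and 10.0 CPM with siNOX4. The groups parted widely in normoxia and by little in hypoxia. The difference was 2.27 with all libraries (SE 0.34, adjusted p = 0.159), 1.62 with replicate 2 (SE 0.37, adjusted p = 0.399), 2.62 with replicate 1 and 2.35 with replicate 3. SPPL2B, a protease that cuts within membranes, had differences of 0.81 and 0.57 with all libraries and with replicate 2, and ICK, a kinase of the cilium, 1.12 and 0.83. ZBTB22, a zinc finger protein, had 1.30 and 0.69. edgeR called none of these 4 genes in either fit, and DESeq2 called all 4 with all libraries (adjusted p = 4.95e-05 for CCDC71 and 0.0292 for the others).

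Genes with a less positive response after siNOX4 included CDC37L1, a relative of the HSP90 co-chaperone CDC37. Less positive can also mean a stronger fall in hypoxia. Its levels were 11.9, 14.7 and 10.3 CPM in siControl normoxia and 19.6, 20.1 and 19.7 CPM in siNOX4 normoxia. In hypoxia they were 15.1, 15 and 14.9 CPM with siControl and 12.1, 12.8 and 12.8 CPM with siNOX4. The order of the siRNAs turned over between the oxygen levels with no overlap at either. The difference was −0.94 with all libraries (SE 0.18, adjusted p = 0.204), −0.69 with replicate 2 (SE 0.16, adjusted p = 0.399), −1.0 with replicate 1 (adjusted p = 7.36e-05) and −1.21 with replicate 3 (adjusted p = 1.06e-05).

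RGS3, which shuts off G protein signals, showed the same turn. It was at 25.2, 27.8 and 28.9 CPM in siControl normoxia and 36.9, 35 and 31.9 CPM in siNOX4 normoxia, and at 48.0, 48.7 and 48.9 CPM and 38.1, 40.4 and 43.7 CPM in hypoxia. siNOX4 lay above siControl in normoxia and below it in hypoxia. Its difference was −0.59 with all libraries and −0.57 with replicate 2 (SE 0.13 and 0.14, adjusted p = 0.204 and 0.399), and it was called with replicates 1 and 3 (−0.72 and −0.52). NOLC1, a nucleolar phosphoprotein of ribosome production, was at 136, 142 and 157 CPM in siControl normoxia and 212, 206 and 224 CPM in siNOX4 normoxia. Its hypoxia levels were 247, 245 and 273 CPM with siControl and 284, 279 and 297 CPM with siNOX4. It was higher with siNOX4 at both levels, by more in normoxia, and the difference was −0.39 with all libraries (adjusted p = 0.204) and −0.43 with replicate 2 (adjusted p = 0.563).

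Further genes of this direction were the fatty acid carrier FABP5 (−0.90 with all libraries, −0.68 with replicate 2), the linker histone HIST1H1C (−0.77 and −0.64), the mitochondrial sideroflexin SFXN5 (−0.60 and −0.52), SPNS3 (−1.61 and −1.11) and TM2D1 (−0.48 and −0.58). edgeR called none of them in either fit. With all libraries DESeq2 called FABP5, HIST1H1C, SFXN5 and SPNS3 (adjusted p = 0.0299, 0.042, 0.0306 and 0.0292). Over the 19 genes chosen by smallest p in the 2 fits, the siNOX4 effect was larger in normoxia than in hypoxia in 18 and had opposite signs at the 2 oxygen levels in 13 (fit with all libraries), which describes genes picked for this contrast. Each of the 12 genes picked with all libraries was called with replicate 1 and with replicate 3, against backgrounds of 36.2% and 36.8%, and 1 of them, AKAP1, with replicate 2. DESeq2 called all 12 with all libraries. All these calls reuse the libraries that the genes were picked from. They were largely set by the picking and are no separate support, and the backgrounds cover genes not picked so.

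**Figure D3:**
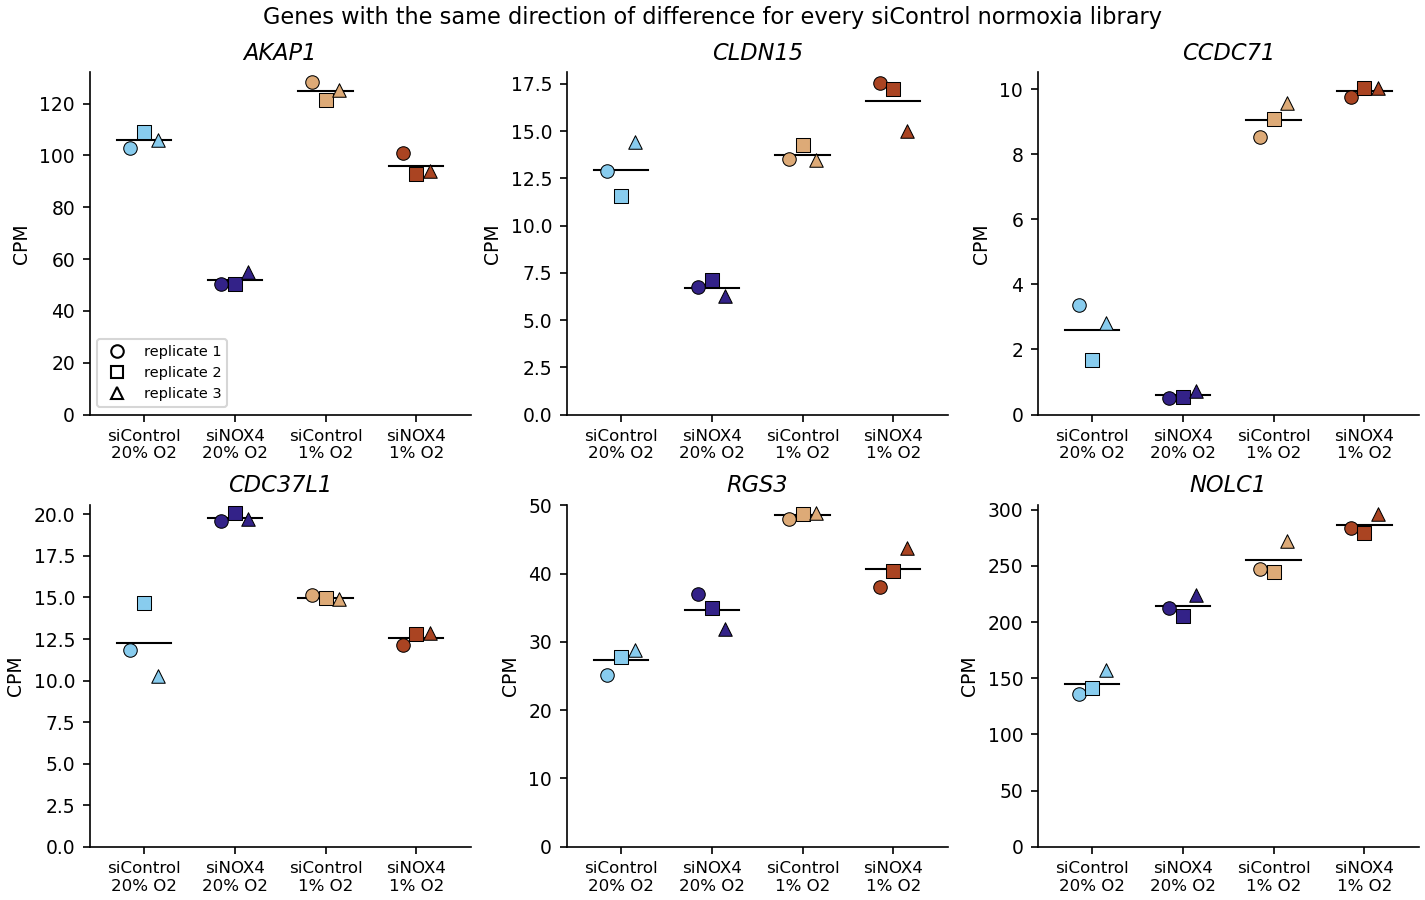
CPM (linear axes from 0) of 6 genes in each library by group; markers show the replicate and lines the group means. The siControl normoxia libraries lie close together for AKAP1 and NOLC1, and the order of siNOX4 and siControl turns over between the oxygen levels for CLDN15, CDC37L1 and RGS3.

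Other genes had a small p with siControl normoxia replicate 2 and another value with its sister libraries. PIGS, a subunit of the transamidase that attaches GPI anchors, was at 17.1, 26.9 and 17.3 CPM in siControl normoxia and 7.5, 8.85 and 8.64 CPM in siNOX4 normoxia. In hypoxia it was at 20.5, 22.0 and 21.6 CPM with siControl and 11.6, 12.3 and 12.4 CPM with siNOX4. PIGS was lower with siNOX4 at both oxygen levels without overlap, and siControl normoxia replicate 2 was its highest library. With replicate 2 hypoxia lowered PIGS in siControl cells (−0.33, adjusted p = 0.0357) and raised it in siNOX4 cells (0.54, adjusted p = 0.000171), yet the difference of 0.86 was not called (SE 0.17, adjusted p = 0.187). With replicates 1 and 3 the difference was 0.20 and 0.22, and neither was called. NEB, the giant actin-binding protein of muscle thin filaments, had called responses of opposite direction with all libraries (−0.96 with siControl, adjusted p = 0.01, and 0.73 with siNOX4, adjusted p = 0.0434), with a difference of 1.70 (SE 0.39, adjusted p = 0.204) that was 0.80 with replicate 2.

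GOLGA2P7, a pseudogene of the golgin family (chromosome 15, 84199311 to 84230136) that was named after its values were seen, was the other call with replicate 2. It was at 3.90, 9.59 and 3.47 CPM in siControl normoxia and 5.53, 5.86 and 4.96 CPM in siNOX4 normoxia, and at 12.5, 11.2 and 13.2 CPM and 21.8, 19.9 and 16.4 CPM in hypoxia. siNOX4 lay above siControl in hypoxia, and between the siControl libraries in normoxia. Its difference was 1.47 with replicate 2 (SE 0.22, adjusted p = 0.0267) but 0.16 with replicate 1 and −0.0038 with replicate 3, where it was not called. With replicate 2 the call was lost under limma-voom with and without sample weights, under a replicate block and in 4 of the 9 fits that left out 1 further library. The family has many similar copies, and the labels do not say how reads shared between copies were handled, so its level is uncertain.

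PPFIA4, a liprin scaffold protein, was at 24.7, 60.6 and 21.9 CPM in siControl normoxia and 46.3, 54.9 and 47.0 CPM in siNOX4 normoxia. In hypoxia it reached 111, 118 and 125 CPM with siControl and 160, 134 and 142 CPM with siNOX4. The siNOX4 libraries were highest in hypoxia and lay between the siControl libraries in normoxia. The difference was 0.59 with replicate 2 (SE 0.13, adjusted p = 0.399), −0.71 with replicate 1 (adjusted p = 0.000636) and −0.88 with replicate 3 (adjusted p = 8.22e-05), so the called direction was the reverse of the one with replicate 2. MAGED1, an adaptor of the MAGE family, had 0.56, −0.44 and −0.72 with replicates 2, 1 and 3, and PLPP3, a phosphatase of bioactive lipids, −0.69, 0.75 and 0.85. SAP30L, a part of the Sin3 repressor complex, had −0.49, −0.14 and −0.29.

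The genes whose difference moved most between the 2 fits are, by that choice, genes on which the siControl normoxia libraries disagreed. The fits differ only in those libraries. PTGS2, the inducible cyclooxygenase of prostaglandin synthesis, was at 337, 2.66 and 359 CPM in siControl normoxia and 3.50, 3.53 and 4.35 CPM in siNOX4 normoxia. At 1% oxygen it was at 7.85, 6.87 and 6.96 CPM with siControl and 6.26, 8.71 and 7.33 CPM with siNOX4. Replicates 1 and 3 of siControl normoxia stood far above all other libraries, and replicate 2 lay beside the siNOX4 libraries. The difference was 5.98 with all libraries (SE 1.46, adjusted p = 0.204), 6.5 with replicate 1 (SE 0.18, adjusted p = 4.57e-16), 6.59 with replicate 3 (SE 0.18, adjusted p = 3.23e-16) and −0.47 with replicate 2 (SE 0.31, adjusted p = 0.854). The betaine transporter SLC6A12 went from 6.37 with all libraries to −1.44 with replicate 2, the matrix glycoprotein RELN from 6.46 to −0.40, and ARHGAP40 from 2.69 to −2.95. AKR1C2, an aldo-keto reductase of steroids with close copies in the genome, went from 6.64 to −0.07.

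In the other direction, TXNIP, which inhibits thioredoxin and glucose uptake, was at 11.2, 199 and 13.0 CPM in siControl normoxia and 161, 205 and 183 CPM in siNOX4 normoxia. At 1% oxygen it was at 565, 551 and 503 CPM with siControl and 522, 557 and 580 CPM with siNOX4. The hypoxia groups overlapped, and siControl normoxia replicates 1 and 3 were the lowest libraries. The difference was −4.0 with replicate 1 (adjusted p = 5e-13), −3.79 with replicate 3 (adjusted p = 7.25e-13) and 0.16 with replicate 2 (adjusted p = 0.88). The inducible HSP70 chaperone HSPA1A was at 42.1, 602 and 35.8 CPM in siControl normoxia, at 953, 925 and 535 CPM in siNOX4 normoxia, and at 67.2 to 79.0 CPM in all hypoxia libraries. Its difference was −1.92 with all libraries and −0.51 with replicate 2, and that of its near-identical copy HSPA1B was −1.99 and −0.59, so the counts of each are uncertain. The histone HIST2H2BE moved from −1.98 to −0.60 and TREM1, a receptor of innate immunity with 0 counts in siControl normoxia replicates 1 and 3, from −1.35 to 0.23, a fitted value that depends on the prior count.

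**Figure D4:**
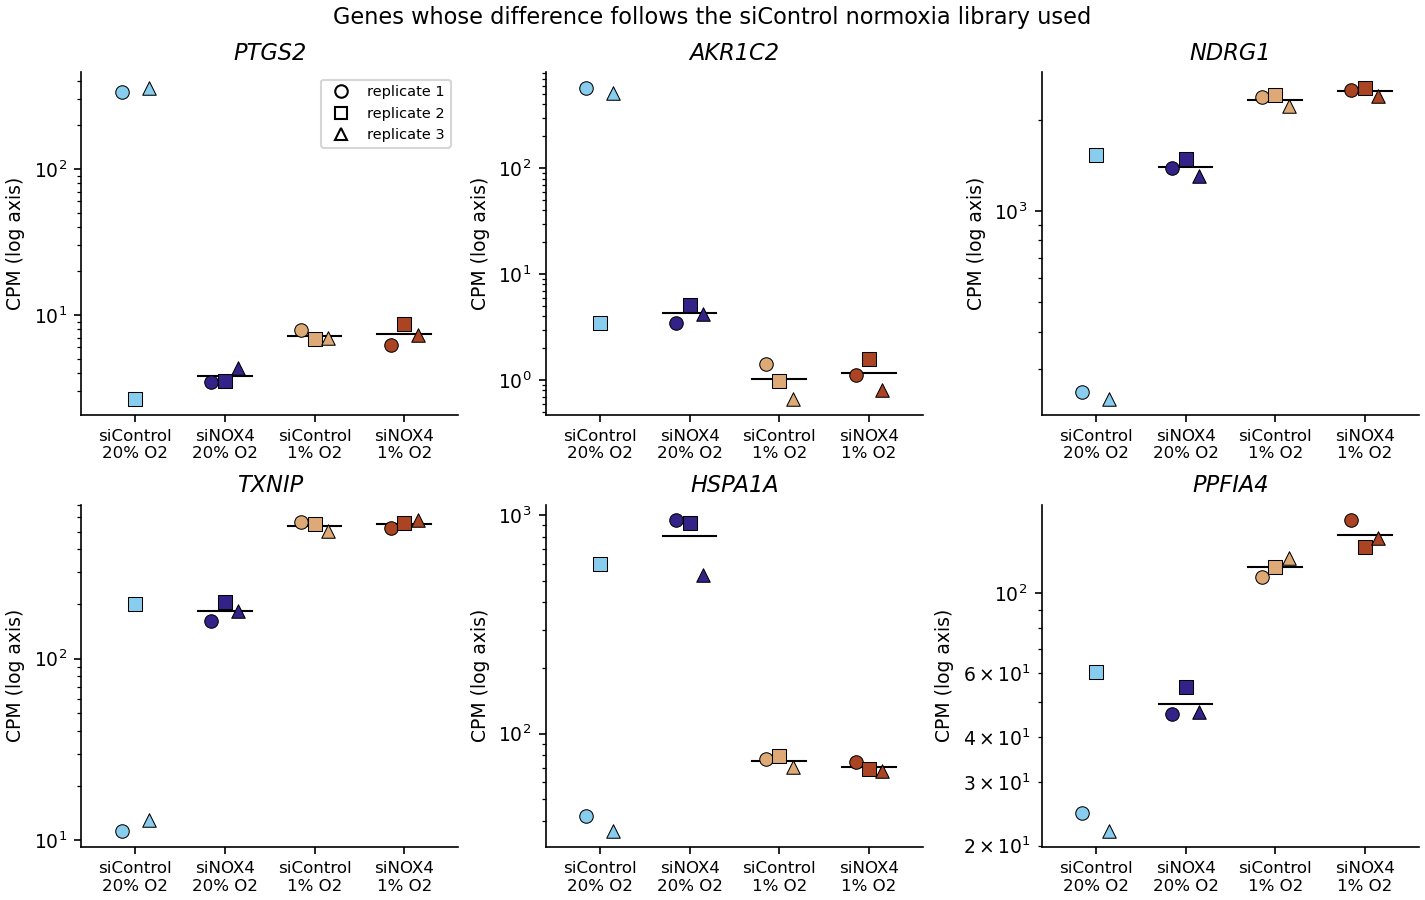
CPM (log axes) of 6 genes in each library by group; markers show the replicate, and lines the means of the groups other than siControl normoxia. In each panel siControl normoxia replicate 2 lies near the siNOX4 normoxia libraries while replicates 1 and 3 lie apart from both.

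No member of any of the 22 gene lists examined was called by edgeR with all libraries or with replicate 2. DESeq2 called 4 members with all libraries, AKR1C2, PTGS2, SLC6A12 and FABP5, and with replicate 2 called AKAP1 and GOLGA2P7, which no list holds. For each list the members called with replicates 1 and 3 are therefore given beside the background of those fits, 18.5% and 19.1% of all genes higher and 17.7% lower in both. The median differences of the lists are plotted for the 4 fits.

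**Figure D5:**
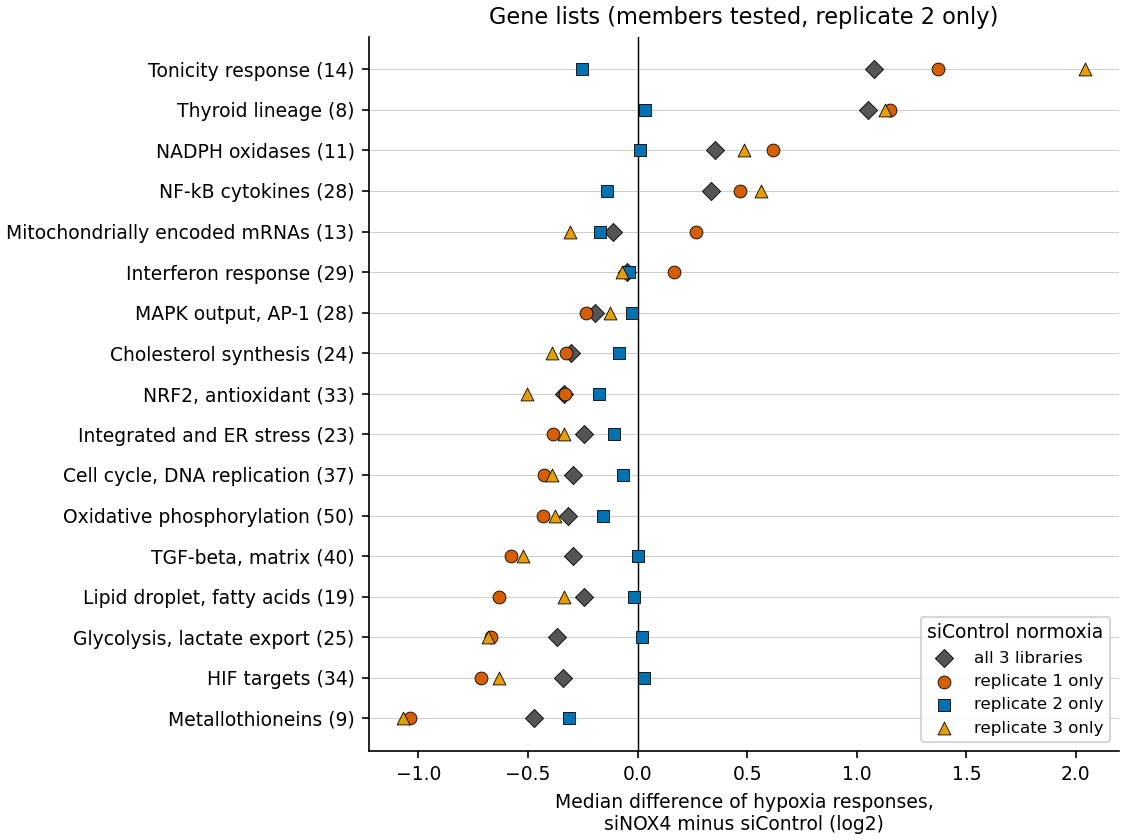
Median log2 difference of hypoxia responses over the tested members of 17 gene lists, with the members tested with replicate 2 in brackets, for the 4 choices of siControl normoxia libraries. With replicate 2 (squares) the medians lie between −0.315 and 0.0341, and with replicates 1 and 3 they reach −1.07 and 2.04.

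Of 18 NADPH oxidase subunits, relatives and partners, 11 were expressed enough to be tested. With replicate 1, 5 were called higher, among them DUOXA1 (1.94), NOXA1 (1.21), DUOX1 (1.15) and POLDIP2 (0.62), and 3 lower (CYBA −0.67, RAC1 −0.52 and RAC2 −0.69), and with replicate 3 the calls were 3 higher, among them NOXA1 (0.95) and POLDIP2 (0.49), and the same 3 genes lower (CYBA −1.08, RAC1 −0.50 and RAC2 −0.76). CYBA, the partner that NOX4 needs, was at 221, 311 and 167 CPM in siControl normoxia and 303, 289 and 267 CPM in siNOX4 normoxia. In hypoxia it was at 631, 661 and 560 CPM with siControl and 417, 573 and 531 CPM with siNOX4. Hypoxia raised CYBA in both populations (1.41 and 0.82 with all libraries, adjusted p = 6.36e-05 and 0.00246). The groups overlapped at both oxygen levels, and the difference was −0.58 with all libraries (adjusted p = 0.233) and −0.17 with replicate 2 (adjusted p = 0.898). DUOX1, an oxidase of thyroid hormone synthesis, had 0.83 and 0.60, and NOXA1, an activator of NOX1, 0.71 and −0.71.

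The median hypoxia response of the HIF targets was 0.71 with siControl and 0.74 with siNOX4 when replicate 2 was the control, and the median difference of the 34 members was 0.0270, with 24 above 0. With replicate 1 the median was −0.715, with 26 members called lower and 1, VEGFA, higher (1.14). With replicate 3 it was −0.634, with 22 called lower and again VEGFA higher (1.27). NDRG1, a stress-induced growth suppressor, was at 252, 1532 and 240 CPM in siControl normoxia and 1389, 1481 and 1305 CPM in siNOX4 normoxia. In hypoxia it was at 2369, 2405 and 2218 CPM with siControl and 2506, 2547 and 2392 CPM with siNOX4. siControl normoxia replicates 1 and 3 were the libraries that lay apart, and the difference was −0.95 with all libraries and 0.23 with replicate 2 (SE 0.11, adjusted p = 0.843). KCTD11, an adaptor of ubiquitin ligases, had the smallest p of the list with replicate 2. It was at 10.7, 18.1 and 10.8 CPM in siControl normoxia and 15.4, 14.2 and 14.6 CPM in siNOX4 normoxia, and at 320, 316 and 338 CPM against 412, 369 and 364 CPM in hypoxia. The siNOX4 libraries lay above siControl in hypoxia and among them in normoxia, and the difference was 0.53 with replicate 2 (SE 0.14, adjusted p = 0.563) and 0.07 with all libraries. STC2, a secreted glycoprotein and the member with the highest level, differed by −0.33 and 0.01.

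The 25 genes of glycolysis and lactate export gave the same picture. Their median difference was 0.0188 with replicate 2, where 14 lay above 0, and −0.369 with all libraries. With replicates 1 and 3 the medians were −0.670 and −0.684, with 18 called lower each time and HK1 alone called higher (0.27 in both). HK2, the hexokinase induced by HIF, was at 117, 329 and 131 CPM in siControl normoxia, 324, 343 and 306 CPM in siNOX4 normoxia, 534, 531 and 533 CPM in siControl hypoxia and 599, 569 and 591 CPM in siNOX4 hypoxia. Its difference was −0.62 with all libraries and 0.16 with replicate 2. For the enolase ENO1 it was −0.25 and −0.01, and for the triose phosphate isomerase TPI1 −0.56 and −0.22.

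Nuclear genes of oxidative phosphorylation were the list with the most members of 1 sign when replicate 2 was the control, 45 of 50 below 0, with a median of −0.160 beside −0.00603 over all genes, and 7 with an unadjusted p under 0.05. With all libraries 48 of 50 lay below 0 (median −0.320). With replicate 1 the calls were 28 lower and 1 higher (NDUFS1, 0.66), and with replicate 3 they were 26 lower and 1 higher (NDUFS1, 0.80). NDUFS6, a complex I subunit, was at 51.2, 61.6 and 41.1 CPM in siControl normoxia and 77.4, 75.7 and 68.0 CPM in siNOX4 normoxia, and at 80.5, 84.5 and 80.6 CPM against 57.0, 79.8 and 74.6 CPM in hypoxia. siNOX4 was above siControl in normoxia and below it in hypoxia without overlap, and the difference was −0.74 with all libraries (adjusted p = 0.204) and −0.48 with replicate 2 (SE 0.16, adjusted p = 0.827). The ATP synthase subunit ATP5F1B had −0.38 and −0.19. The library siNOX4 hypoxia replicate 1 held the lowest share of mitochondrially encoded counts (0.197%, against 0.317% to 0.358% in the other hypoxia libraries) and the lowest NDUFS6 of its group. Without it the median of the list was −0.217 with all libraries and −0.0546 with replicate 2.

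The 13 mitochondrially encoded mRNAs had median hypoxia responses of −1.42 with siControl and −1.47 with siNOX4 with replicate 2. Their median difference was −0.173 with replicate 2 and −0.114 with all libraries. Without siNOX4 hypoxia replicate 1 these became 0.0466 and 0.200. Replicates 1 and 3 as the control gave medians of 0.268 and −0.308, with the complex I transcripts MT-ND4 and MT-ND4L called lower in both. MT-ND4L was at 123, 134 and 108 CPM in siControl normoxia, 137, 142 and 158 CPM in siNOX4 normoxia, 36.8, 34.6 and 38.3 CPM in siControl hypoxia and 21.9, 35.6 and 32.6 CPM in siNOX4 hypoxia. Its difference was −0.54 with all libraries and −0.40 with replicate 2.

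Among 35 NRF2 and antioxidant genes, 33 were tested with all libraries and with replicate 2, where 29 lay below 0 (median −0.176). The list summed to 6500 CPM in siNOX4 hypoxia replicate 1, against 7731 and 6956 CPM in replicates 2 and 3 of that group. Its median without that library is not given here. With replicate 1, 7 of 34 were called higher and 17 lower, and with replicate 3, 7 higher and 19 lower. PRDX4, a peroxiredoxin that removes hydrogen peroxide in the endoplasmic reticulum, was at 18.3, 43.4 and 16.8 CPM in siControl normoxia and 68.3, 59.8 and 69.3 CPM in siNOX4 normoxia. In hypoxia it was at 71.3, 76.4 and 71.9 CPM with siControl and 71.7, 88.5 and 89.2 CPM with siNOX4. It was above siControl in normoxia for every siNOX4 library, with overlap in hypoxia, and the difference was −1.15 with all libraries (adjusted p = 0.204) and −0.42 with replicate 2 (SE 0.15, adjusted p = 0.832). SLC7A11, the cystine importer, was one of few members above 0, at 0.53 and 0.46. The list of metallothioneins also holds SLC30A1 and MTF1, which are not metallothioneins. The metallothioneins, which bind zinc and copper, had a median of −0.315 over 9 members with replicate 2, and with replicates 1 and 3 5 were called lower each time, MT1E (−2.13 and −2.76), MT1X (−2.09 and −1.72), MT2A (−0.89 and −1.07) and the zinc exporter SLC30A1 (−1.04 and −1.11) in both, MT1F in the first and MT1A in the second. With replicate 3 the zinc-sensing factor MTF1 was called higher (0.46). MT1E was −1.46 with all libraries and −0.49 with replicate 2 (adjusted p = 0.204 and 0.84).

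Of 23 genes of the integrated and endoplasmic reticulum stress responses, 18 lay below 0 in every fit, with medians of −0.243 with all libraries and −0.108 with replicate 2. With replicates 1 and 3, 12 were called lower each time. The glutathione-degrading CHAC1 was called higher in both (2.15 and 1.48), with XBP1 (0.38) in the first and SLC7A11 (0.67) in the second. The chaperone HSPA5 had a difference of −0.57 with all libraries and −0.14 with replicate 2.

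Inflammatory genes changed sign with the control. The 28 tested NF-kB targets and cytokines had a median of 0.335 with all libraries, 0.467 with replicate 1, 0.563 with replicate 3 and −0.138 with replicate 2. With replicate 1, 13 were called higher and 5 lower, and with replicate 3, 15 higher and 7 lower. NFKBIA, the inhibitor that NF-kB itself induces, was at 701, 189 and 896 CPM in siControl normoxia, 210, 212 and 185 CPM in siNOX4 normoxia, 157, 170 and 149 CPM in siControl hypoxia and 138, 157 and 135 CPM in siNOX4 hypoxia. Its difference was 1.41 with all libraries and −0.24 with replicate 2, and that of the neutrophil attractant CXCL8 was 0.67 and −0.34.

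The calls among interferon-stimulated genes went in both directions, at shares near the background of all genes. With replicate 1, 7 of 30 were called higher (SAMD9 2.48, DDX58 2.04, MX1 1.98, IFIT2 1.66, IFIT3 1.22, OAS3 0.95 and HERC6 0.61) and 3 lower (IFI44 −1.12, ISG15 −0.99 and BST2 −0.57), and with replicate 3 there were 6 higher and 7 lower. ISG15, a ubiquitin-like modifier, was at 137, 177 and 108 CPM in siControl normoxia and 211, 181 and 140 CPM in siNOX4 normoxia, and at 156, 175 and 142 CPM against 89.1, 111 and 111 CPM in hypoxia. siNOX4 lay below siControl in hypoxia without overlap, and the groups overlapped in normoxia. The difference was −0.94 with all libraries and −0.60 with replicate 2 (SE 0.20, adjusted p = 0.827), and that of IFI27 was −0.55 and −0.37.

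Proliferation and lipid genes had medians below 0. Over 37 cell cycle and replication genes the median was −0.296 with all libraries and −0.0677 with replicate 2. With replicate 1, 16 were called lower and 3 higher (MCM3 0.91, MCM4 0.45 and E2F1 0.44), and with replicate 3, 14 lower and 6 higher. CCND1, the G1 cyclin, had −0.85 with all libraries and −0.14 with replicate 2. The 24 genes of cholesterol synthesis and uptake had medians of −0.302 and −0.0835, with 9 and 10 called lower with replicates 1 and 3 and the regulator SREBF2 called higher (0.90 and 0.87). For lipid droplet and fatty acid genes 10 and 9 of 19 were called lower and 0 higher, with a median of −0.0186 with replicate 2.

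Matrix and signalling genes behaved likewise. The 40 TGF-beta and matrix genes had a median of −0.294 with all libraries and −0.000241 with replicate 2, with 24 called lower and 4 higher with replicate 1 (BAMBI 1.5, TNC 0.45, SNAI2 0.39 and TGFBR1 0.37) and 23 lower and 6 higher with replicate 3. MMP3, a matrix protease, had the smallest p of the list with replicate 2. It was at 24.0, 13.1 and 22.7 CPM in siControl normoxia and 25.9, 22.4 and 20.6 CPM in siNOX4 normoxia, and at 10.6, 10.9 and 8.55 CPM against 7.60, 11.7 and 9.22 CPM in hypoxia. The groups overlapped at both levels, and the difference was −0.89 with replicate 2 (SE 0.25, adjusted p = 0.726) and −0.28 with all libraries. Of 28 MAPK output and AP-1 genes, 12 and 11 were called lower with replicates 1 and 3, and 2 (IER3 0.78 and FOSL2 0.58) and 7 higher. The phosphatase DUSP1, which switches off MAP kinases, had −0.80 with all libraries and −0.03 with replicate 2.

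Thyroid lineage genes moved apart with replicates 1 and 3. PAX8 (1.68 and 1.60) and the cadherin CDH16 (5.0 and 4.75) were called higher in both, with DUOX1 in the first and the deiodinases DIO1 and DIO2 in the second, and NKX2-1 (−1.60 and −1.48), HHEX (−1.03 and −1.02) and FOXE1 (−0.51 and −0.73) lower. Of 17 listed genes, 9 were tested in these fits. DIO1 had only 3 to 21 counts per library and DIO2 0 to 22. PAX8 was at 1735, 533 and 1640 CPM in siControl normoxia, 551, 457 and 520 CPM in siNOX4 normoxia and 382 to 450 CPM in hypoxia. Its difference was 1.28 with all libraries (adjusted p = 0.204) and −0.01 with replicate 2 (SE 0.13, adjusted p = 0.994). The tonicity-response genes, many of which carry or make osmolytes, with 14 tested (15 with replicates 1 and 3), had the widest span of medians, 1.08 with all libraries, 1.37 and 2.04 with replicates 1 and 3, and −0.254 with replicate 2. SLC5A3, the inositol importer, was at 5106, 624 and 5290 CPM in siControl normoxia, 578, 557 and 620 CPM in siNOX4 normoxia, and 81.6 to 109 CPM in hypoxia, with a difference of 2.69 with all libraries and 0.13 with replicate 2. The kinase SGK1 had 1.55 and −0.26.

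Summed markers of other cell types lay below the epithelial sum. Single members were well expressed in every library: THY1 (fibroblast, 64.1 to 88.1 CPM), CSPG4 (mural, 27.3 to 46.4 CPM) and TIE1 (endothelial, 11.2 to 37.3 CPM). The endothelial TEK had 0 or 1 counts per normoxia library and 46 to 62 per hypoxia library. The fibroblast marker COL3A1 had 179, 0 and 187 counts in siControl normoxia and at most 6 elsewhere. Summed over 12 immune markers the level was 9.27, 2.10 and 8.04 CPM in siControl normoxia, 1.86 to 3.37 CPM in siNOX4 normoxia and 5.18 to 7.08 CPM in hypoxia. CD3E had 1 count in 1 library, and CD14, with 121, 13 and 98 counts in siControl normoxia, was called higher with replicates 1 and 3 (2.42 and 2.16). Of 10 endothelial markers, with a sum of 34.2 to 58.7 CPM, PECAM1 was called higher (3.63 and 3.18) and TIE1 lower (−1.23 and −0.77) with these libraries, while CDH5 had at most 5 counts. The 9 fibroblast markers summed to 71.7 to 114 CPM and the 7 mural markers to 37.1 to 68.7 CPM, with 9 epithelial markers at 1143 to 1985 CPM. In mural markers DES (6.42 and 5.54) and CNN1 (0.83 and 0.63) were called higher in both fits and CSPG4 lower in the second (−0.51), and in fibroblast markers COL1A2 was called higher in the second (2.60). Among 9 epithelial markers KRT8, KRT7 and CLDN4 were called lower in both. edgeR called no marker with all libraries or with replicate 2, and the part of these genes in the differences was not tested.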

How the data were processed

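Total RNA of the 12 samples was prepared with an Illumina TruSeq kit, as the labels' protocols say. The deposited file holds, per the file headers, raw counts for every gene in each library, for 58735 genes with GENCODE 29 identifiers (GRCh38), of which 37380 had a count. Bowtie 0.12.2 and the mouse builds mm8 and mm9 appear in the submitters' processing notes with no stated role. Counter and annotation were not given in the sources used here. Dates in place of 12 gene names were replaced by GENCODE names. The 12 deposited FPKM columns and the authors' own comparisons were not used.

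Counts were fitted with edgeR 4.0.16 (R 4.3.3), with TMM factors (0.9035 to 1.086), filterByExpr by group, 1 mean per group and the quasi-likelihood F test. Calls needed an adjusted p under 0.05 (Benjamini-Hochberg, over all genes tested). Levels are CPM after TMM scaling, and SE and 95% intervals belong to the fitted log2 values. The median SE of a difference was 0.205 with all libraries and 0.156 with siControl normoxia replicate 2 alone (genes of at least 5 CPM). The script was tested on simulated data in which the libraries of a group were alike. That test does not bear on the divergence among the siControl normoxia libraries. Without stated strand, overlapping genes on opposite strands cannot be told apart.

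Genes named were NOX4, the 6 smallest p per direction in each of the 2 fits (protein-coding, at least 5 CPM in the highest group, sign of the difference of log2 CPM, prior count 2, kept over all 81 or 27 choices of 1 library per group), genes called for hypoxia in opposite directions, 2 members by p and the highest member of each list, and the 5 per direction that moved most between the fits. Any other gene was named after its values were seen, and some genes that the rule names are left out. The comparison, the members and the 22 lists were chosen with earlier results of these data known. Alternatives were other scalings, filters, DESeq2 1.42.0, limma-voom (limma 3.58.1) with and without sample weights, a 2-fold minimum, a replicate block, and each library left out.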

Additional observations from a re-analysis of the deposited data

Results flagged for a closer look

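AKAP1 and GOLGA2P7 stand out because the hypoxia response of siNOX4 cells differed from that of siControl cells by a test of the difference itself when siControl normoxia replicate 2 was the only normoxia control. The difference was 0.687 log2 units for AKAP1 (edgeR adjusted p = 0.0267) and 1.47 for GOLGA2P7 (adjusted p = 0.0267). For both genes every hypoxia library exceeded every normoxia library of the same siRNA, with siControl as with siNOX4. That order is shared by both responses and does not bear on their difference. The fit rests on 1 library for that group, which is assumed to vary like the others. With replicates 1 and 3 as the control the difference of AKAP1 was 0.59 and 0.63 (called), and that of GOLGA2P7 0.16 and −0.0038 (not called). Both calls of the fit with replicate 2 were lost under limma-voom and under a replicate block.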

How the results depend on the processing

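With all 12 libraries the count of calls stayed at 0 under DESeq2 size factors or upper-quartile factors in edgeR, a stricter filter, limma-voom and the 2-fold minimum. It was 2107 without a filter on low counts, 75 with the DESeq2 test and 7614 with limma-voom and sample weights, where siControl normoxia replicate 2 had a weight of 0.058 against 0.809 to 0.82 for its sister libraries. Leaving out 1 library gave 0 to 7696 calls, 7696 being without siControl normoxia replicate 2. With a single siControl normoxia library the count was 6842, 2 or 6951 for replicates 1, 2 and 3. The calls of the fit with replicate 2 alone became 43 without a filter, 1 with the 2-fold minimum and 0 with limma-voom, and 0 to 5 when 1 library was left out: 0 without siNOX4 normoxia replicate 1 or 2 or siControl hypoxia replicate 1 or 2, 1 without siNOX4 hypoxia replicate 3, 3 without siNOX4 hypoxia replicate 1 and 5 without siNOX4 normoxia replicate 3. The cause was not tested.

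With a replicate block in edgeR the count was 0 with all libraries and 0 with replicate 2 alone (3789 and 1252 genes at an unadjusted p under 0.05). Of 18 pairs of same-numbered libraries, 2 correlated above 0.1 in their deviations from group means (−0.058 to 0.15). Both paired siControl with siNOX4 normoxia (0.15 for replicate 2 and 0.139 for replicate 3). Libraries of different number were not compared, so these values do not tell whether the samples were paired.

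With replicate 2 alone the difference had the opposite sign to that with all libraries in 26 of 90 genes, GOLGA2P7 and those that the naming rule picked. Among NOX4 and the genes chosen for the largest move, the sign was opposite for NOX4 (0.339), SLC6A12 (−1.44), RELN (−0.399), AKR1C2 (−0.0704), PTGS2 (−0.472), ARHGAP40 (−2.95), TXNIP (0.157) and TREM1 (0.231). That of NOX4 ran from −0.623 to 0.379 with 1 library left out of all 12, and from −0.0610 to 0.936 with 1 left out beside replicate 2 alone. Depth limits NOX4 to 1 to 17 counts per library.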
